A study of Oryzias latipes with 27 samples.

Results

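The miR-203 and miR-205 families were followed through medaka (Oryzias latipes) gonad development. Members were all mature miRNAs of the families miR-203 and miR-205, whatever their letter, copy or arm, and 5 of the 437 miRNAs in the tables met this: miR-203b-3p, miR-203b-5p, miR-205-5p, miR-205-1a-3p and miR-205-1b-3p. Small RNA was sequenced from 27 libraries, 3 for each of 9 groups. MT_Fe_Ov is the ovary of XY fish in which the Y-linked male-determining gene DMY was disrupted by TALENs, WT_Fe_Ov is wild-type XX ovary, and WT_Ma_Te is wild-type XY testis. Each was sampled at D10, D30 and D120, which are 10, 30 and 120 days after hatching. The labels name MT_Fe_Ov as a male knockout gonad, and that these XY fish carry an ovary is taken from the tissue label and the study. D10 samples are gonadal primordia taken with neighbouring tissue, without head and tail, so D10 differs from the later stages in the tissue sampled as well as in age.

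miRNAs are short RNAs cut from a hairpin precursor, whose 5p or 3p strand is loaded into Argonaute and lowers the output of mRNAs that match it. In mammals miR-203 is a miRNA of the skin epidermis that moves keratinocytes out of the proliferating state, in part by repressing p63. miR-205 is abundant in the basal cells of stratified epithelia and, together with the miR-200 family, represses ZEB1 and ZEB2, the repressors of E-cadherin. In the ASM223467v1 annotation of RefSeq, mir203 is a hairpin at chr22:12757964-12758072 that overlaps no other gene and lies between kif26a, 3379 bases before it, and aspg, 1725 bases after it. The hairpin mir205, at chr7:22546335-22546413, also overlaps no other gene, with the protein-coding LOC110015376 2118 bases before it. RefSeq names 1 locus of each family, and which miR-205 copy the locus corresponds to was not worked out here. The sequences of the 5 mature miRNAs were not available in the sources used here and none is shown.

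The depth, as miRNA counts in all, was 2518868 to 8818687 per library at D10, 54535 to 810120 at D30 and 1054214 to 3517578 at D120. As a group D30 MT_Fe_Ov had the fewest, with 107271, 54535 and 351194 counts. These are not sequencing depths, since the paper lists total reads of the same order for all libraries. In the paper the share of reads matching miRNAs was lower in every D30 library than in any D10 or D120 library. It was also lower in each D30 MT_Fe_Ov library than in each D30 WT_Fe_Ov library. The part of this share in RPM differences was not tested. Levels are RPM, the reads of a miRNA per 1000000 miRNA counts of the library. The gonad miRNA miR-202-5p, read as a check of the tissue, was low at D10, between 112 and 468 RPM in the ovary groups and between 123 and 174 RPM in WT_Ma_Te. At D30 its mean was 4615 RPM in MT_Fe_Ov, 10118 in WT_Fe_Ov and 135068 in WT_Ma_Te. It reached 241202 to 269609 RPM in D120 WT_Fe_Ov but was listed at 0 in every D120 MT_Fe_Ov and WT_Ma_Te library, where miR-202-3p was at 634 to 1471 RPM. D120 WT_Fe_Ov RPM values therefore share their total with an arm listed at 0 in the other D120 groups, whose part in the RPM differences was not tested. In bulk RNA, fewer cells of a type and less miRNA per cell cannot be told apart, and whether the signal came from gonad or attached tissue was not measured.

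The leading strands of both families were most abundant at D10. miR-203b-3p held 7.04% ± 0.918 of all miRNA counts in MT_Fe_Ov, 7.89% ± 1.10 in WT_Fe_Ov and 8.64% ± 2.49 in WT_Ma_Te (SD, n = 3 each), ranking 1, 2 and 1 among the miRNAs of those groups. It was at 62107, 68736 and 80250 RPM in D10 MT_Fe_Ov, at 86049, 84438 and 66193 RPM in WT_Fe_Ov and at 61180, 110867 and 87262 RPM in WT_Ma_Te. These 3 groups overlapped. miR-205-5p was at 7987, 8954 and 6951 RPM in D10 MT_Fe_Ov, at 8039, 10166 and 10912 RPM in WT_Fe_Ov and at 14870, 21347 and 10727 RPM in WT_Ma_Te. All 3 MT_Fe_Ov libraries lay below all 3 WT_Ma_Te libraries, while WT_Fe_Ov overlapped both.

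The minor strands and copies were far lower at D10. miR-203b-5p, the other strand of the miR-203b hairpin, averaged 1602 ± 682 RPM in MT_Fe_Ov, 1898 ± 894 in WT_Fe_Ov and 1223 ± 462 in WT_Ma_Te (SD, n = 3 each). miR-205-1a-3p lay between 60.7 and 114 RPM and miR-205-1b-3p between 24.2 and 59.2 RPM over the 9 D10 libraries. The 3p arm of miR-203b was therefore the main strand of its hairpin, and the 5p arm that of miR-205.

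No member was called different between genotypes at D10. A call needed a Benjamini-Hochberg adjusted p of 0.05 or lower in edgeR's quasi-likelihood test and a log2 fold change of 1 or more in either direction. By this rule 0 of 5 members were called in MT_Fe_Ov against WT_Fe_Ov, in WT_Fe_Ov against WT_Ma_Te or in MT_Fe_Ov against WT_Ma_Te, where 0% of all 388 miRNAs were called in each. At an unadjusted p under 0.05 there were 11, 76 and 72 miRNAs in these 3 contrasts, and DESeq2 called 0, 23 and 9. The largest member difference was that of miR-205-5p in MT_Fe_Ov against WT_Ma_Te, a log2 fold change of -1.16 ± 0.33 (SE) with an adjusted p of 0.195 in edgeR, which DESeq2 called (adjusted p = 0.0425). Of the 5 members, 0, 0 and 1 had RPM ranges that did not overlap in the 3 contrasts, against 9.02%, 21.9% and 22.2% of all miRNAs.

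**Figure D1:**
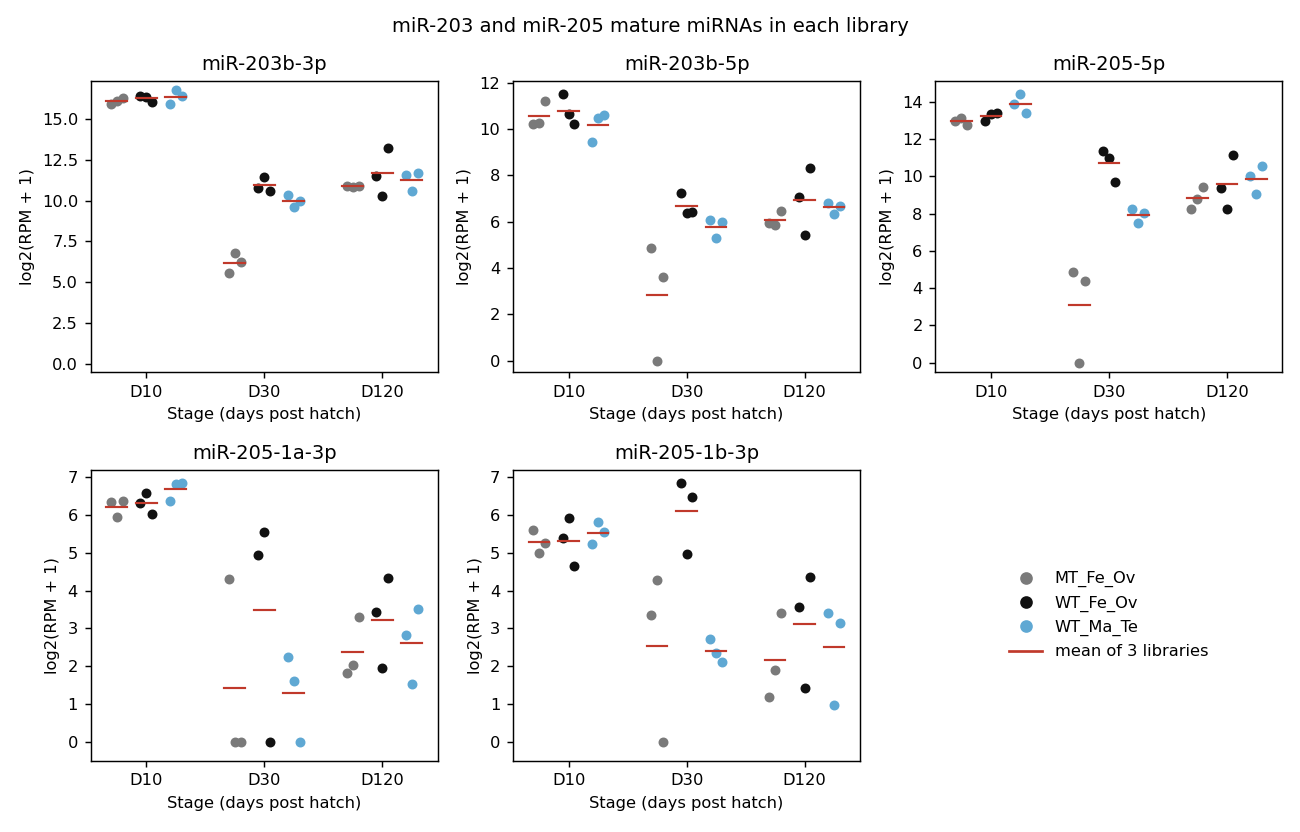
Level of each member in each library, as log2(RPM + 1), by stage and genotype, with a red line at the mean of the 3 libraries of a group. All members but miR-205-1b-3p are highest at D10, and the D30 MT_Fe_Ov libraries (grey) lie lowest for miR-203b-3p, with 46.6 to 110 RPM.

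Both leading strands were much lower at D30, with their lowest levels in MT_Fe_Ov. The mean of miR-203b-3p was 76.9 RPM in D30 MT_Fe_Ov against 70364 RPM at D10, a 915-fold difference of means. In WT_Fe_Ov the D30 and D10 means were 2030 and 78893 RPM, a 38.9-fold difference, and in WT_Ma_Te they were 1029 and 86436 RPM, an 84.0-fold difference. miR-205-5p averaged 16.0 RPM in D30 MT_Fe_Ov against 7964 RPM at D10, and 246 RPM in D30 WT_Ma_Te against 15648 RPM at D10, but it stayed at 1839 RPM in D30 WT_Fe_Ov against 9706 RPM at D10, a 5.28-fold difference.

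In edgeR, fitted on all 27 libraries, the D30 against D10 contrast called 4 of 5 members lower in MT_Fe_Ov, where 39.8% of all 399 miRNAs were called lower. The log2 fold changes were -9.66 ± 0.66 for miR-203b-3p, -8.40 ± 0.82 for miR-205-5p, -6.48 ± 0.76 for miR-203b-5p and -3.75 ± 1.28 for miR-205-1a-3p (SE). The last call was lost without D30 MT_Fe_Ov replicate 3 (log2 fold change -2.55, edgeR adjusted p = 0.119). It rested on 2, 0 and 0 counts in D30 MT_Fe_Ov, and its log2 fold change ran from -10.6 to -2.55 over the replicates left out. In WT_Fe_Ov 3 of 5 members were called lower, against 57.4% of all miRNAs: miR-203b-3p at a log2 fold change of -5.23 ± 0.53, miR-203b-5p at -4.12 ± 0.60 and miR-205-5p at -2.36 ± 0.57. In WT_Ma_Te all 5 were called lower, against 35.8% of all miRNAs, with log2 fold changes between -3.55 and -6.62. The D30 WT_Ma_Te counts behind 2 of these were 2, 1 and 0 for miR-205-1a-3p and 3, 2 and 1 for miR-205-1b-3p. miR-203b-3p and miR-203b-5p come from the same hairpin, so the 5 are not separate observations. The median over all miRNAs of the same contrasts was -2.07 in MT_Fe_Ov, -3.34 in WT_Fe_Ov and -0.36 in WT_Ma_Te, and the members' medians were -6.48, -2.36 and -5.70. In either direction 55.4%, 74.7% and 60.7% of all miRNAs were called in them.

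At D30 the order of the groups was the same for both leading strands, with WT_Fe_Ov highest and MT_Fe_Ov lowest. miR-203b-3p was at 46.6, 110 and 74.0 RPM in MT_Fe_Ov (5, 6 and 26 counts), at 1731, 2800 and 1560 RPM in WT_Fe_Ov and at 1301, 792 and 995 RPM in WT_Ma_Te. The 3 groups did not overlap, and every MT_Fe_Ov library was below every other D30 library. miR-205-5p was at 28.0, 0 and 19.9 RPM in MT_Fe_Ov (3, 0 and 7 counts), at 2635, 2046 and 835 RPM in WT_Fe_Ov and at 298, 178 and 264 RPM in WT_Ma_Te. These 3 groups did not overlap either. The count of 0, of 54535 in all, allows up to 55.0 RPM, counting error only, which lies below every library of the other D30 groups.

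The fifth member, miR-205-1a-3p, did not reach 10 counts in 3 D30 libraries and was not tested there. It had 2, 0 and 0 counts in MT_Fe_Ov, 24, 24 and 0 in WT_Fe_Ov and 2, 1 and 0 in WT_Ma_Te. miR-205-1b-3p reached 10 counts only in the D30 WT_Fe_Ov libraries (1, 1 and 0 counts in MT_Fe_Ov, 93, 16 and 54 in WT_Fe_Ov, and 3, 2 and 1 in WT_Ma_Te), so it was tested at D30 only through the group in which it is high. Its D30 values are given as a description and it is left out of the D30 counts of members.

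Between the D30 ovaries, 2 of the other 3 members were called lower in MT_Fe_Ov. Of all 250 miRNAs tested, 9.6% were called lower and 28.4% in either direction. miR-203b-3p had a log2 fold change of -4.43 ± 0.43 (SE, edgeR adjusted p = 0.000162) and miR-205-5p one of -6.16 ± 0.70 (edgeR adjusted p = 0.000299). Summed over the 3 libraries of each group, the counts were 37 in MT_Fe_Ov and 3834 in WT_Fe_Ov for miR-203b-3p, a 27.2-fold lower share of all counts in MT_Fe_Ov with an exact 95% interval of 19.7 to 38.7, and 10 and 3724 for miR-205-5p, 97.9-fold lower with an interval of 53.1 to 204, counting error only. miR-203b-5p (log2 fold change -2.50 ± 0.86, edgeR adjusted p = 0.0536) missed the threshold with 7 counts in the 3 MT_Fe_Ov libraries together, and DESeq2 called it. In these 3 members the RPM ranges did not overlap, against 35.2% of all miRNAs. The median over all miRNAs was 0.17.

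Against D30 testis the ovaries differed in opposite directions. In MT_Fe_Ov against WT_Ma_Te, 2 of the same 3 members were called lower, against 18% of all miRNAs: miR-203b-3p at a log2 fold change of -3.40 ± 0.42 (SE, edgeR adjusted p = 0.000633) and miR-205-5p at -3.25 ± 0.65 (edgeR adjusted p = 0.00497). In WT_Fe_Ov against WT_Ma_Te, 2 of the 3 were called higher, against 16.4% of all miRNAs: miR-205-5p at 2.91 ± 0.56 (edgeR adjusted p = 0.0021) and miR-203b-3p at 1.04 ± 0.36 (edgeR adjusted p = 0.0395). The last was lost when any of WT_Fe_Ov replicate 2, WT_Ma_Te replicate 2 or WT_Ma_Te replicate 3 was left out (log2 fold change 0.85, 1.01 and 1.07). The RPM ranges of the 3 members did not overlap in MT_Fe_Ov against WT_Ma_Te or in WT_Fe_Ov against WT_Ma_Te, where 56.4% and 67.6% of all miRNAs did not overlap. The median over all miRNAs was -0.29 and -0.65 in these contrasts, and 31.6% and 46.8% of all miRNAs were called in either direction. The 3 D30 contrasts share their libraries in pairs.

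**Figure D2:**
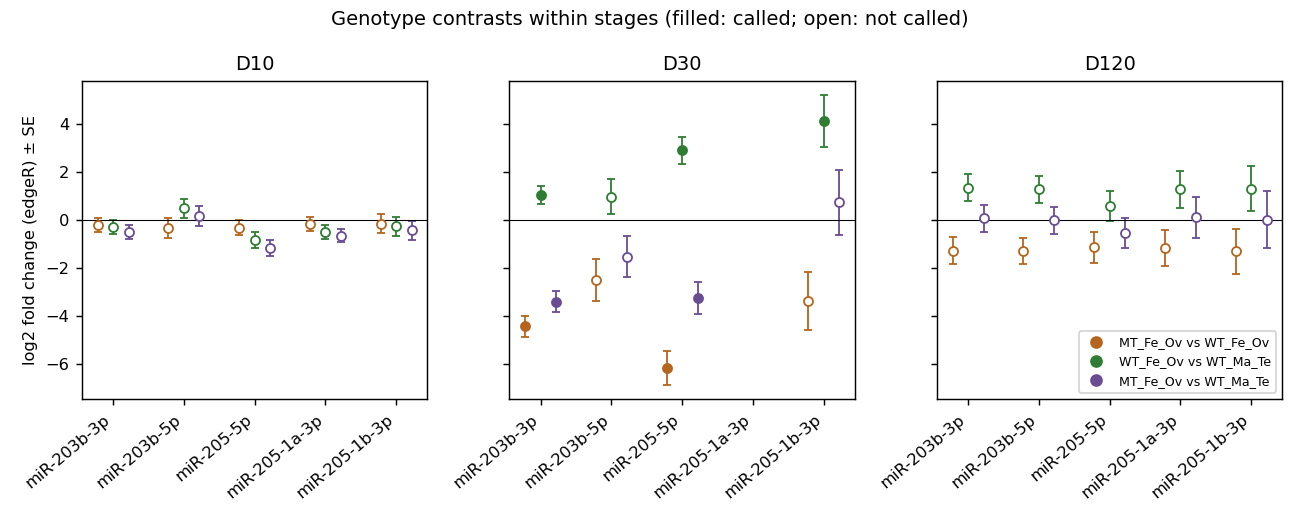
Log2 fold change of each member from edgeR, with an SE derived from its F statistic, for the 3 genotype contrasts of each stage. Filled points are calls and open points the rest, with no point for miR-205-1a-3p at D30, where it was not tested. The called members are all at D30, where both contrasts of MT_Fe_Ov lie at -4.43 and -3.40 for miR-203b-3p and at -6.16 and -3.25 for miR-205-5p. At D30 miR-205-1b-3p passed the filter only through WT_Fe_Ov, so its points, the filled one at 4.11 among them, are a description only.

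The D30 MT_Fe_Ov libraries differed among themselves in other tissue miRNAs. The summed level of 18 neural miRNAs (miR-9, miR-124, miR-153 and miR-219) was 93.2, 385 and 50827 RPM in replicates 1, 2 and 3, against 114 to 296 RPM in D30 WT_Fe_Ov. Without replicate 3 the MT_Fe_Ov against WT_Fe_Ov log2 fold changes were -4.65 for miR-203b-3p and -6.44 for miR-205-5p. Both stayed called. The low miRNA counts of all 3 MT_Fe_Ov libraries, and their low share of reads matching miRNAs, move with the group. Their part in these values was not tested.

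In WT_Fe_Ov miR-205-1b-3p was not lower at D30 than at D10, whereas it was called lower in WT_Ma_Te (-3.55 ± 0.94, edgeR adjusted p = 0.00237) and had a log2 fold change of -2.82 ± 1.24 in MT_Fe_Ov (edgeR adjusted p = 0.0569). It was at 115, 30.5 and 87.4 RPM in D30 WT_Fe_Ov (93, 16 and 54 counts), against 41.2, 59.2 and 24.2 RPM in D10 WT_Fe_Ov. The 2 stages overlapped and the D30 against D10 log2 fold change was 0.91 ± 0.70 (SE, edgeR adjusted p = 0.233). Its D30 WT_Fe_Ov mean of 77.6 RPM was the highest of its 9 groups, whereas the other 4 members were highest at D10. Of all reads of the miR-205 3p arms, 22.7% (95% exact interval 17.3 to 29.0, 211 counts) were miR-205-1a-3p in D30 WT_Fe_Ov, against 65.8% (63.7 to 67.9) in D10 WT_Fe_Ov. The share in the single D30 libraries was 20.5%, 60.0% and 0% (0 of 54 counts, an exact interval up to 6.60%), so it varied between replicates by more than these intervals. D30 MT_Fe_Ov was at 50.0% (2 of 4 counts, interval 6.76 to 93.2) and D30 WT_Ma_Te at 33.3% (9 counts, interval 7.49 to 70.1), and both intervals cover the share in D30 WT_Fe_Ov. D10 MT_Fe_Ov and WT_Ma_Te were at 65.8% and 70.1%, and the D120 groups between 50.0% and 52.2%. How reads that match both 3p arms were counted is not stated in the sources used here, so the split between the copies is uncertain.

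At D120 no member was called different between genotypes. miR-203b-3p was at 1939, 1793 and 1919 RPM in MT_Fe_Ov, at 2852, 1264 and 9499 RPM in WT_Fe_Ov and at 2990, 1516 and 3272 RPM in WT_Ma_Te. MT_Fe_Ov and WT_Ma_Te lay within the range of WT_Fe_Ov, whose replicate 3 stood apart from the others. miR-205-5p was at 297, 439 and 695 RPM in MT_Fe_Ov, at 650, 305 and 2220 RPM in WT_Fe_Ov and at 1039, 520 and 1475 RPM in WT_Ma_Te. The same WT_Fe_Ov replicate was the highest of all D120 libraries for both, and for miR-203b-5p too, at 318 RPM against 132.9 and 41.8 RPM in the other 2.

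In edgeR 0 of 5 members were called in MT_Fe_Ov against WT_Fe_Ov, in WT_Fe_Ov against WT_Ma_Te and in MT_Fe_Ov against WT_Ma_Te at D120, where 0.581%, 38.1% and 36% of all 344 miRNAs were called. In the same contrasts 16, 187 and 179 miRNAs had an unadjusted p under 0.05, and DESeq2 too called 0 of 5 members in each. No member had RPM ranges that did not overlap, against 7.56%, 60.5% and 58.1% of all miRNAs. miR-203b-3p had a log2 fold change of -1.27 ± 0.56 in MT_Fe_Ov against WT_Fe_Ov (SE, edgeR adjusted p = 0.996), of 1.34 ± 0.56 in WT_Fe_Ov against WT_Ma_Te (edgeR adjusted p = 0.0746) and of 0.07 ± 0.55 in MT_Fe_Ov against WT_Ma_Te (edgeR adjusted p = 0.935). Without WT_Fe_Ov replicate 3 the first became -0.33 and the second 0.43. Without WT_Fe_Ov replicate 2, the lowest, miR-203b-3p was called higher in WT_Fe_Ov than in WT_Ma_Te (1.76, edgeR adjusted p = 0.0079), with 2 members called. Over the replicates left out, 100 to 125 of all miRNAs were called in that contrast, against 131 with every replicate. The third turned to -0.46 under scaling by library totals alone, under which the median over all miRNAs moved to -0.52.

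From D30 on, the leading strands rose most in MT_Fe_Ov. Its D30 values rest on 37 counts of miR-203b-3p and 10 of miR-205-5p in 3 libraries. The median over all miRNAs was 1.44 in MT_Fe_Ov, 2.02 in WT_Fe_Ov and 0.78 in WT_Ma_Te (log2, D120 against D30). The members' medians were 2.17, -0.75 and 1.27, and 53.1%, 65.4% and 43.6% of all miRNAs were called in either direction. In WT_Fe_Ov the rise of miR-203b-3p given below was smaller than the median over all miRNAs. The D120 against D30 log2 fold changes in MT_Fe_Ov were 4.63 ± 0.55 for miR-203b-3p, 4.57 ± 0.75 for miR-205-5p and 2.17 ± 0.75 for miR-203b-5p (SE), and these 3 of 5 were called higher, where 35.3% of all miRNAs were called higher. The miR-203b-5p call was lost without D30 MT_Fe_Ov replicate 2, D30 replicate 3 or D120 replicate 3 (edgeR adjusted p from 0.0574 to 0.0965). In WT_Fe_Ov 1 of 5 members was called higher, miR-203b-3p (1.19 ± 0.45, edgeR adjusted p = 0.023), against 46.9% of all miRNAs, and 1 lower, miR-205-1b-3p (-2.78 ± 0.76, edgeR adjusted p = 0.00271), against 18.5%. The first rested on D120 WT_Fe_Ov replicate 3 (0.13 without it) and was also lost without D30 WT_Fe_Ov replicate 1 or 3 (1.10 and 1.05). Without the same D120 replicate miR-205-5p was called lower (-1.81, edgeR adjusted p = 0.00496), against -0.75 ± 0.55 with it. In WT_Ma_Te 2 of 5 members were called higher, miR-203b-3p (1.27 ± 0.45, edgeR adjusted p = 0.0242) and miR-205-5p (1.97 ± 0.57, edgeR adjusted p = 0.00715), against 30.8% of all miRNAs. Neither was called without D120 WT_Ma_Te replicate 3 (0.77 and 1.31), the library with 22613 RPM of gut miRNAs (miR-192 and miR-194) against 1291 and 1681 RPM in the other 2. The same library had 13545 RPM of the miR-200a, miR-200b and miR-429a list, against 3523 and 2910 RPM in the other 2. The part of either list in these values was not tested. The miR-203b-3p call was also lost without D120 replicate 1, D30 replicate 2 or D30 replicate 3 (0.90 to 1.22).

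Whether the genotype differences themselves changed between stages was tested as an interaction in the fit of all 27 libraries. D10 samples hold neighbouring tissue. In D30 against D10 a change with age therefore cannot be told apart from the change in the tissue sampled. For a genotype pair, D30 against D10 and D120 against D30 hold the same D30 difference with opposite sign. Their calls are therefore not independent. Those with MT_Fe_Ov rest on its 37 counts of miR-203b-3p and 10 of miR-205-5p at D30. In either direction, 25.1% and 21.6% of all miRNAs were called for MT_Fe_Ov against WT_Fe_Ov in D30 against D10 and D120 against D30. These shares were 49.4% and 44.9% for WT_Fe_Ov against WT_Ma_Te, and 33.3% and 34.8% for MT_Fe_Ov against WT_Ma_Te. For MT_Fe_Ov against WT_Fe_Ov, 2 of 5 members were called lower in D30 against D10, where 9.02% of all miRNAs were, and 2 of 5 higher in D120 against D30, where 7.52% were: miR-203b-3p at -4.42 ± 0.69 and 3.44 ± 0.68 on the log2 scale, and miR-205-5p at -6.03 ± 0.94 and 5.32 ± 0.93 (SE). For WT_Fe_Ov against WT_Ma_Te, 3 members of the miR-205 family were called higher in D30 against D10 (13.5% of all miRNAs), and 2 were called lower in D120 against D30 (13.5%). In D30 WT_Ma_Te miR-205-1a-3p had only 2, 1 and 0 counts and miR-205-1b-3p 3, 2 and 1, and the split of reads between them is uncertain. Of the 5 calls, that of miR-205-1b-3p in D120 against D30 (edgeR adjusted p = 0.0458) was lost in 11 of 20 alternatives, among them 9 that left out 1 replicate and the replicate block (-3.12), and that of miR-205-1a-3p in D30 against D10 in 3 of 20. miR-203b-3p missed the threshold in D30 against D10 (1.39 ± 0.63, edgeR adjusted p = 0.0741). For MT_Fe_Ov against WT_Ma_Te, 1 member was called lower in D30 against D10 (23.1% of all miRNAs) and 2 higher in D120 against D30 (21.6%), of which the call of miR-205-5p was lost in 9 of 20 alternatives.

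The balance between the families was read as the count ratio of miR-203b-3p to miR-205-5p within each library, which does not depend on library scaling. In D30 WT_Fe_Ov it was 0.657, 1.37 and 1.87, against 4.36, 4.46 and 3.78 in D30 WT_Ma_Te. All 3 WT_Fe_Ov libraries were below all WT_Ma_Te libraries, and below all D10 WT_Fe_Ov libraries (10.7, 8.31 and 6.07). At D120 it was 4.39, 4.14 and 4.28 in WT_Fe_Ov, above the 2.88, 2.92 and 2.22 in WT_Ma_Te, so the order of these groups at D120 was the opposite of that at D30. The means of the log2 ratio differed by -1.81 at D30 and 0.69 at D120, each with an exact two-sided permutation p of 0.1, the smallest that 3 against 3 allow, and an adjusted p of 0.3 over the 15 contrasts. None of the 15 could therefore pass 0.05. In D30 MT_Fe_Ov the ratio was 1.67 in replicate 1 and 3.71 in replicate 3 and was not defined in replicate 2, where miR-205-5p had 0 counts.

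The ratio of the strands of miR-203b was also read within each library. miR-203b-3p outnumbered miR-203b-5p 33.6- to 56.4-fold in D10 MT_Fe_Ov, 29.6- to 55.4-fold in D10 WT_Fe_Ov and 56.1- to 87.9-fold in D10 WT_Ma_Te. At D30 the ratio was 11.5 to 34.1 in WT_Fe_Ov and 15.9 to 20.4 in WT_Ma_Te, and at D120 it was between 18.8 and 32.3 over all 9 libraries. D10 and D30 WT_Ma_Te did not overlap in this ratio, while D10 and D30 WT_Fe_Ov did. In D30 MT_Fe_Ov it was 1.67 in replicate 1 and 6.50 in replicate 3, from 3 and 4 counts of miR-203b-5p, and was not defined in replicate 2. No test was run on it.

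**Figure D3:**
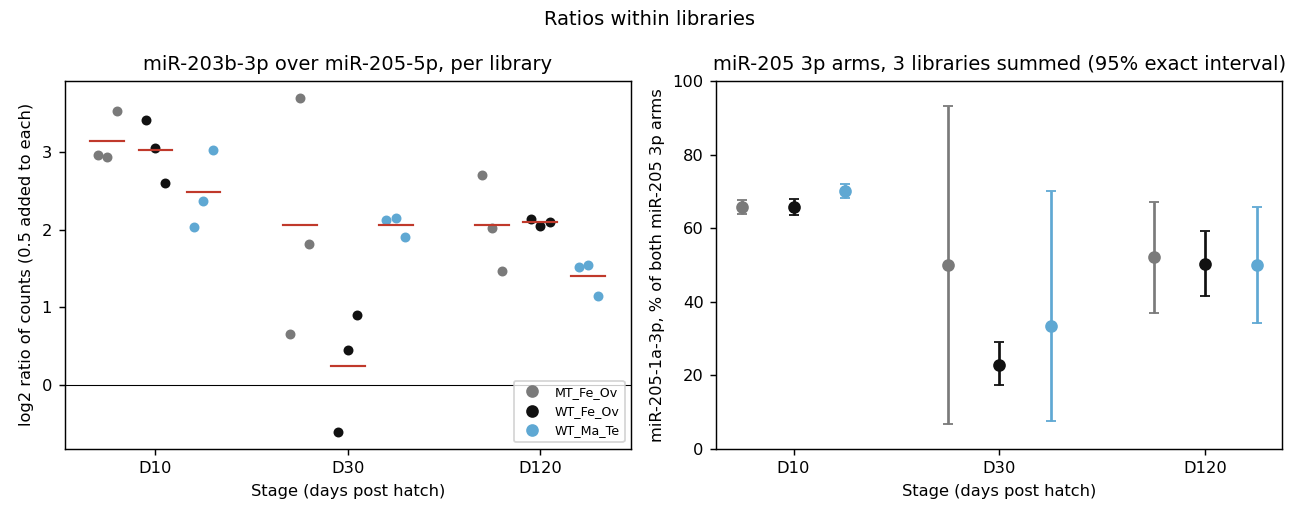
Left, log2 ratio of miR-203b-3p to miR-205-5p counts in each library with 0.5 added to each count, with a red line at the group mean. Right, miR-205-1a-3p as a share of both miR-205 3p arms, 3 libraries summed, with exact 95% intervals. D30 WT_Fe_Ov has the lowest value in both, a mean log2 ratio of 0.25 and a share of 22.7%, that share being inside the wide intervals of the other D30 groups.

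The members were set beside a list of other epithelial miRNAs, 6 arms of miR-200a, miR-200b and miR-429a, which mark epithelia in general. In MT_Fe_Ov, WT_Fe_Ov and WT_Ma_Te their summed level was 46699 to 78968, 44951 to 67675 and 23285 to 39427 RPM at D10, then 9294 to 18169, 6456 to 8723 and 14466 to 17950 RPM at D30, and 8139 to 8695, 6687 to 10612 and 2910 to 13545 RPM at D120. Among the D30 groups the sum was lowest in WT_Fe_Ov, where the members were highest, and most of it was miR-429a-3p. miR-200a-3p averaged 273 RPM in MT_Fe_Ov, against 515 RPM in WT_Fe_Ov and 4432 RPM in WT_Ma_Te at D30, and miR-200b-3p 443 RPM, against 806 and 1746 RPM, so the means of these 2 were lowest in MT_Fe_Ov, as were those of miR-203b-3p and miR-205-5p. In D30 MT_Fe_Ov against WT_Fe_Ov 1 of its 3 tested members was called higher and 0 lower: miR-429a-3p at a log2 fold change of 1.33 ± 0.30 (SE, edgeR adjusted p = 0.00947), with -0.56 for miR-200a-3p and -0.63 for miR-200b-3p. Of all miRNAs, 18.8% were called higher and 9.6% lower there. In D30 WT_Fe_Ov against WT_Ma_Te 2 of 3 were called lower, against 30.4% of all miRNAs. They were miR-200a-3p at -3.07 ± 0.43 and miR-200b-3p at -1.07 ± 0.36, where miR-203b-3p and miR-205-5p were called higher. In D30 MT_Fe_Ov against WT_Ma_Te the same 2 of 3 were called lower, against 18% of all miRNAs. They were miR-200a-3p at -3.62 ± 0.45 (edgeR adjusted p = 0.000633) and miR-200b-3p at -1.70 ± 0.37 (edgeR adjusted p = 0.00805), the direction of miR-203b-3p and miR-205-5p in that contrast. At D10 0 of 5 tested were called in any genotype contrast, and at D120 1 of 5, miR-429a-3p, higher in MT_Fe_Ov than in WT_Ma_Te (1.33 ± 0.49, edgeR adjusted p = 0.0459). Of all miRNAs, 0% were called in each D10 contrast and 18.9% were called higher in that D120 contrast.

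Markers of neighbouring tissue were also high at D10. The summed level of 10 muscle miRNAs (miR-1, miR-133, miR-206 and miR-499) was 757 to 2946 RPM at D30 against 89201 to 125342 RPM at D10 in MT_Fe_Ov. It was 1100 to 1185 RPM at D30 against 121599 to 152675 RPM at D10 in WT_Fe_Ov, and 7381 to 8915 RPM at D30 against 97760 to 156474 RPM at D10 in WT_Ma_Te. At least 5 of the 10 were at 0 in every D30 ovary library. The gut list of 6 was at 13740 to 48786 RPM at D10. At D30 it was at 638 to 2815 RPM in MT_Fe_Ov, 253 to 452 RPM in WT_Fe_Ov and 547 to 841 RPM in WT_Ma_Te. The sums of the muscle, gut and miR-200 lists, and of the neural list but for D30 MT_Fe_Ov replicate 3, moved down with the members between D10 and D30. Their part in that difference was not tested. In the miR-200 list, miR-429a-3p was not called lower at D30 in any genotype. Its log2 fold changes were -0.03 in MT_Fe_Ov, -0.99 in WT_Fe_Ov and -0.43 in WT_Ma_Te. The 3 erythroid miRNAs (miR-144 and miR-451) did not move alike in the 3 genotypes. Their sum overlapped between stages in MT_Fe_Ov (7782 to 27964 RPM at D30 and 9636 to 25071 RPM at D10), was lower at D30 in WT_Fe_Ov (5025 to 6433 RPM, against 10312 to 20851 RPM at D10) and was higher at D30 in WT_Ma_Te (18444 to 30723 RPM, against 6110 to 9451 RPM at D10). Between the D30 ovaries 0 of the 4 muscle miRNAs tested were called, against 28.4% of all miRNAs. Their median log2 fold change was 0.75 for MT_Fe_Ov against WT_Fe_Ov. In the same contrast 1 of 3 gut, 1 of 2 erythroid and 1 of 5 neural miRNAs tested were called higher and 0 lower. Of all miRNAs, 18.8% were called higher. The median log2 fold changes of these lists were 2.30, 2.47 and 0. The D30 ovaries thus differed in other tissue miRNAs too, whose part in the member differences was not tested.

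Over the 9 D10 libraries, 9 relations on log2(RPM + 1) were tested by exact permutation, and none passed after adjustment. miR-203b-3p and miR-205-5p had a Pearson r of 0.37 (exact permutation p = 0.331, adjusted p = 0.496) and a Spearman rho of 0.15 (exact permutation p = 0.708), with an r of 0.05 without the 2 libraries farthest from the median. miR-205-5p had an r of -0.82 with the neural list (exact permutation p = 0.00734, adjusted p = 0.0661; rho -0.50, exact permutation p = 0.178; r -0.75 without those 2 libraries). With the miR-200 and miR-429a list miR-205-5p had an r of -0.71 (exact permutation p = 0.0345, adjusted p = 0.144) and a rho of -0.82 (exact permutation p = 0.0108, adjusted p = 0.0969), with an r of -0.83 without the 2 farthest libraries. With the muscle list it had an r of 0.67 (exact permutation p = 0.048, adjusted p = 0.144) and a rho of 0.73 (exact permutation p = 0.0311, adjusted p = 0.13), with an r of 0.49 without the 2 farthest. miR-203b-3p was not alike in this. Its r was 0.24 with the miR-200 and miR-429a list, -0.06 with muscle and -0.28 with neural (exact permutation, adjusted p from 0.601 to 0.865). The r of miR-203b-3p with miR-203b-5p was 0.56, and that of miR-205-5p with miR-205-1a-3p was 0.46 (exact permutation, adjusted p = 0.254 and 0.386). The 9 libraries hold 3 genotypes of 3, too few for a value within a genotype.

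**Figure D4:**
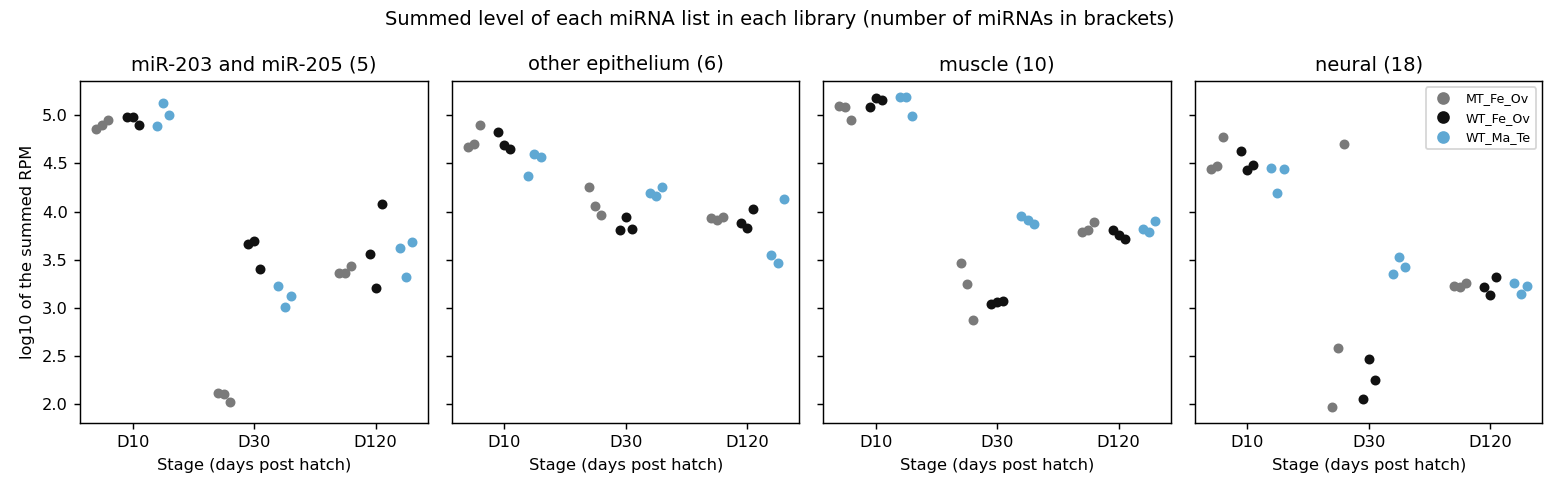
Summed RPM, as log10, of the 5 members and of the other epithelium, muscle and neural lists in each library. Among D30 libraries the members are lowest in MT_Fe_Ov (105 to 131 RPM), the other epithelium list is lowest in WT_Fe_Ov (6456 to 8723 RPM), and 1 D30 MT_Fe_Ov library has 50827 RPM of the neural list.

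Over the 27 libraries, the miRNAs most alike miR-203b-3p among 195 candidates averaging at least 100 RPM were miR-10b-5p, miR-10c-5p and miR-455-5p, with Pearson r on log2(RPM + 1) of 0.94, 0.90 and 0.89. For miR-205-5p they were miR-724-5p (0.88), miR-10b-5p (0.84) and miR-184a-3p (0.82). These values largely share the difference between D10 and the later stages, and the libraries share genotype and depth. The miRNAs were picked over these same 27 libraries, D30 among them. Likeness to the members at D30 is therefore partly fixed by the choice and is given as a description. The D30 means of miR-184a-3p had the order of those of miR-205-5p. It was at 36.7 to 196 RPM in MT_Fe_Ov, 943 to 2371 in WT_Fe_Ov and 69.4 to 244 in WT_Ma_Te, with WT_Fe_Ov above both and the other 2 groups overlapping. Its log2 fold change was -3.83 ± 0.80 in MT_Fe_Ov against WT_Fe_Ov (SE, edgeR adjusted p = 0.00716) and 3.51 ± 0.77 in WT_Fe_Ov against WT_Ma_Te (edgeR adjusted p = 0.00419). miR-10b-5p was called lower in D30 MT_Fe_Ov than in WT_Fe_Ov (-1.39 ± 0.36, edgeR adjusted p = 0.0155), and miR-10c-5p, miR-455-5p and miR-724-5p were not called there (-0.87, -0.06 and -0.47).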

How the data were processed

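Small RNA of 27 medaka gonad libraries (3 genotypes, 3 stages, 3 replicates) was size-selected, ligated to adapters, amplified by PCR and sequenced on an Illumina HiSeq by the authors. The deposited counts are whole, unnormalized read counts per mature miRNA: the authors kept reads longer than 17 nt with a quality of at least 20, mapped them to ASM223467v1 with mapper.pl of miRDeep2 and counted them on FishmiRNA matures with quantifier.pl. The deposited RPM values are the authors' counts divided by the summed miRNA counts of the library, times 1000000. RPM is relative: any gain in an abundant miRNA takes RPM from the rest of its library. RPM recomputed from the counts differed by at most 4.97e-05. Groups came from the sample labels. Whether replicates are separate fish is not given in the sources used here, so p-values measure the spread between these libraries. No replicate pair agreed within sampling noise (lowest chi-square per degree of freedom 20.3 of 27 pairs).

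edgeR 4.0.16 in R 4.3.3 tested all miRNAs that reached 10 counts in 3 or more of the fitted libraries (quasi-likelihood F test, TMM scaling, Benjamini-Hochberg adjustment over all miRNAs tested): 9 genotype contrasts on the 9 libraries of a stage, and 6 stage contrasts and 6 interactions on all 27. Intervals are exact Clopper-Pearson (95%) and a count of 0 was read as up to 3 counts, and both cover counting error only, since no molecular identifiers are stated. The SE of a log2 fold change was derived as its absolute value divided by the square root of the edgeR F statistic. At low counts it need not match the p-value. Ratios used exact permutation tests with 0.5 added to each count. In simulated counts with 4-fold changes the test recovered 179 of 188 changed miRNAs at D10 (388 tested), 61 of 127 at D30 (241 tested), 156 of 162 at D120 (341 tested) and 143 of 188 over all libraries (396 tested). It also made 12, 1, 4 and 7 false calls. The simulation gave all groups 1 shared profile and 1 median spread, so it does not give the power of the real contrasts. Alternatives were DESeq2 1.42.0, RLE scaling, library totals only, other filters and thresholds, a replicate block, other sets of libraries and leaving out each replicate.

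The members, the tissue lists (other epithelium, muscle, neural, gut, erythroid and gonad) and the tests were chosen with earlier results of these data known. Shares of all miRNAs called higher or lower were picked after the direction of the members was seen. Named beyond the members were the 3 miRNAs most alike miR-203b-3p and miR-205-5p, and called miRNAs of the epithelial list. miR-202 and the uncalled miR-200 arms were named after their values were seen. RefSeq gene positions are those of ASM223467v1.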

Additional observations from a re-analysis of the deposited data

Results flagged for a closer look

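By edgeR, the genotype difference of a member changed between successive stages in 12 tests, with 5 members in each of 6 interactions. Values are on the log2 scale from the fit of all 27 libraries. In these interactions 21.6% to 49.4% of all miRNAs were called in either direction, and the share of members called over all 6 lies within that range. The shares of all miRNAs were lowest for MT_Fe_Ov against WT_Fe_Ov, at 25.1% in D30 against D10 and 21.6% in D120 against D30. For MT_Fe_Ov against WT_Fe_Ov, miR-203b-3p had -4.42 (adjusted p = 4.85e-05) in D30 against D10 and 3.44 (adjusted p = 0.000592) in D120 against D30, and miR-205-5p had -6.03 (adjusted p = 4.85e-05) and 5.32 (adjusted p = 0.000224) in edgeR. These 4 calls held with each replicate left out in turn. They are not independent, since the D30 difference enters both stage steps with opposite sign, here and in the interactions below. In D30 against D10, age and the tissue sampled cannot be told apart.

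For MT_Fe_Ov against WT_Ma_Te, miR-203b-3p had -3.04 (edgeR adjusted p = 0.00146) in D30 against D10 and 3.36 (edgeR adjusted p = 0.000482) in D120 against D30, and miR-205-5p had 2.60 (edgeR adjusted p = 0.0327) in D120 against D30. The last was lost in 7 fits that left out 1 replicate each (edgeR adjusted p up to 0.0989) and under RLE scaling (2.17). Of all miRNAs, 33.3% were called in D30 against D10, above the share of members, and 34.8% in D120 against D30, near it.

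For WT_Fe_Ov against WT_Ma_Te, miR-205-5p had 3.85 (edgeR adjusted p = 0.000365) in D30 against D10 and -2.72 (edgeR adjusted p = 0.00713) in D120 against D30. miR-205-1b-3p had 4.47 (edgeR adjusted p = 0.00319) and -3.17 (edgeR adjusted p = 0.0458), and the second of these was lost in 9 fits that left out 1 replicate each (edgeR adjusted p up to 0.135). miR-205-1a-3p had 4.06 (edgeR adjusted p = 0.0201) in D30 against D10, which was lost without D30 WT_Fe_Ov replicate 2 (3.33) or D30 WT_Ma_Te replicate 3 (3.64). Both 3p arms were near the floor in D30 WT_Ma_Te, with 2, 1 and 0 counts of miR-205-1a-3p and 3, 2 and 1 of miR-205-1b-3p. Of all miRNAs, 49.4% were called in D30 against D10 and 44.9% in D120 against D30, near the shares of members called.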

How the results depend on the processing

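Numbers of members called moved as follows, with the causes not tested. In this section the D30 genotype counts include miR-205-1b-3p, so that of WT_Fe_Ov against WT_Ma_Te is 3. It passed the filter of the D30 fits only through WT_Fe_Ov, where it is high, so its D30 calls are a description only. With DESeq2, 1 member was called in D10 MT_Fe_Ov against WT_Ma_Te (0 in edgeR), and 4 in D30 MT_Fe_Ov against WT_Fe_Ov (2), as in 1 fit of all 27 libraries. At an adjusted p of 0.01, 1 was called in D30 WT_Fe_Ov against WT_Ma_Te (3), 1 in WT_Fe_Ov D120 against D30 (2) and 1 in WT_Ma_Te D120 against D30 (2). With only the 6 libraries compared the last 2 were 0 and 1, and with the default filter of edgeR the WT_Fe_Ov one was 1. The interaction of MT_Fe_Ov against WT_Fe_Ov in D30 against D10 had 4 (2) with DESeq2, library totals or the default filter. That of MT_Fe_Ov against WT_Ma_Te had 2 (1) with library totals in D30 against D10, and 1 (2) with RLE scaling or an adjusted p of 0.01 in D120 against D30. That of WT_Fe_Ov against WT_Ma_Te in D120 against D30 had 1 (2) at 0.01 and with the replicate block. Totals over all miRNAs moved too. DESeq2 called 9 (0) in D10 MT_Fe_Ov against WT_Ma_Te and 121 (100) in the first of these interactions. With 1 fit of 27 libraries, 126 (71) were called in D30 MT_Fe_Ov against WT_Fe_Ov. At 0.01, 87 (117) were called in D30 WT_Fe_Ov against WT_Ma_Te and 137 (174) in WT_Ma_Te D120 against D30. Where no total is given, the member count was not set against all miRNAs.

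Leaving out each replicate gave 2 to 4 calls in D30 MT_Fe_Ov against WT_Fe_Ov, 1 to 2 in D30 WT_Fe_Ov against WT_Ma_Te, 0 to 2 in D120 WT_Fe_Ov against WT_Ma_Te, 1 to 3 in WT_Fe_Ov D120 against D30 and 0 to 2 in WT_Ma_Te D120 against D30. In the same order, these fits called 57 to 81 (71 with every replicate), 73 to 112 (117) and 100 to 125 (131) of all miRNAs. For the stage contrasts the totals were 245 to 260 (261) and 146 to 167 (174). Without any 1 of the D30 WT_Fe_Ov replicates, miR-205-1b-3p fell below the filter of the D30 fits. Part of the lower D30 WT_Fe_Ov against WT_Ma_Te count is therefore a member not tested. The interactions gave 2 to 4 (MT_Fe_Ov against WT_Fe_Ov) and 1 to 2 (MT_Fe_Ov against WT_Ma_Te) in D30 against D10, and 1 to 2 for both contrasts with WT_Ma_Te in D120 against D30.

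The log2 ratio of miR-203b-3p to miR-205-5p reversed with 1 RPM added in D30 MT_Fe_Ov against WT_Ma_Te (1.06, against -0.0031) and in MT_Fe_Ov D120 against D30 (-1.05, against 0.01). Leaving out replicates it ranged from -0.82 to 0.70 and from -0.69 to 0.83 there, from -0.0943 to 0.32 in D10 MT_Fe_Ov against WT_Fe_Ov and from -0.35 to 0.27 in D120 MT_Fe_Ov against WT_Fe_Ov. The D10 relation of miR-203b-3p with muscle (r -0.06) became 0.0238 on linear RPM and 0.177 with RPM computed without both. Among fold changes not called, miR-203b-3p reversed in D10 WT_Fe_Ov against WT_Ma_Te without WT_Ma_Te replicate 2 (-0.49 to 0.0115 over the replicates left out), and in D120 MT_Fe_Ov against WT_Ma_Te with library totals (-0.46), in 1 fit of 27 libraries (-0.20) and without WT_Ma_Te replicate 2 (-0.19 to 0.23 over replicates). miR-205-5p reversed in D120 WT_Fe_Ov against WT_Ma_Te without WT_Fe_Ov replicate 3 (-0.32 to 1.02 over replicates). The D30 WT_Fe_Ov against WT_Ma_Te call of miR-203b-3p was also lost with library totals (0.98) and with a minimum of 1 count in total (0.93).

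Replicate numbers did not pair the libraries (r of deviations from -0.24 to 0.20, with 0 of 15 contrasts in which every pair passed 0.1). With the replicate block, miR-203b-3p lost its D30 WT_Fe_Ov against WT_Ma_Te call (0.99, edgeR adjusted p = 0.1), leaving 2 members called, miR-205-1b-3p among them. Calls over all miRNAs went to 53 with the block, against 79 without it, in D30 MT_Fe_Ov against WT_Ma_Te. Over all miRNAs, an adjusted p of 0.01 gave 40 calls (71) in D30 MT_Fe_Ov against WT_Fe_Ov and 40 (79) in D30 MT_Fe_Ov against WT_Ma_Te, and 1 fit of 27 libraries gave 126 and 148, and 214 (117) in D30 WT_Fe_Ov against WT_Ma_Te. With library totals the median over all miRNAs was -0.60 (log2), against -0.29 with TMM, in D30 MT_Fe_Ov against WT_Ma_Te, and -0.54, against 0.04, in D120 WT_Fe_Ov against WT_Ma_Te. The low D30 MT_Fe_Ov counts limit the precision of every contrast with that group.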
